A study of Mus musculus with 12 samples.

Results

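The transcripts of 10 receptor chains for interleukin-2 (IL-2), IL-4, IL-6, IL-7, IL-21 and interferon-γ (IFN-γ) were examined in follicular helper T (Tfh) cells, the CD4+ T cells that help B cells in the follicle. The chains were taken by gene symbol, as Il2ra, Il2rb, Il2rg, Il4ra, Il7r, Il21r, Il6ra, Il6st, Ifngr1 and Ifngr2, and all 10 were among the 24561 genes of the count table. All 10 also passed the filter on low counts, which left 12719 genes. RNA was measured by an adapted SMART-Seq2 protocol, which copies polyadenylated RNA from small cell numbers, in about 200 CXCR5hiPD-1hi cells per library. The cells were OT-II cells, CD4+ T cells with a transgenic receptor for ovalbumin, on the C57BL/6 background. Donor cells carried CD4-Cre alone (labelled WT) or CD4-Cre with 1 floxed Bcl6 allele (CD4-CrexBcl6fl/+, labelled HET), were transferred into CD45.1 Sap-/- mice, and were sorted from draining lymph nodes on day 3 after subcutaneous NP-OVA with LPS in alum. Each group held 3 recipient mice with 2 technical repeats per mouse, which makes 12 libraries. CD4-Cre is active in all T cells that have expressed Cd4, so both groups carry Cre and only HET cells carry the floxed allele. Ages were not given in the sources used here, nor was it stated for these transfers of OT-II cells whether the recipients of a group shared a donor. For its transfers of whole spleen cells, the study's methods say that a single donor usually served 3 recipients. If the recipients here shared a donor, donor and genotype cannot be told apart, and p-values measure only the spread between recipients.

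Cytokine receptors of this kind have no kinase of their own. Their signalling chains bind Janus kinases (JAKs), which phosphorylate STAT transcription factors when a ligand brings the chains together. IL-2, IL-4, IL-7 and IL-21 share the common γ chain encoded by Il2rg, whereas IL-6 uses its own chain encoded by Il6ra with the signalling chain gp130 encoded by Il6st. In T cells, IL-6 and IL-21 acting through STAT3 are known to favour Tfh development, and IL-2 acting through STAT5 is known to oppose it.

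Library totals ran from 3343375 to 8315722 counts in HET (median 6220914.5) and from 5240715 to 7266106 in WT (median 5535081.5). Bcl6 itself, the gene targeted in HET, was at 148.7 ± 2.18 normalized CPM (counts scaled to the library total; SD, n = 3 mice) in HET and 62.4 ± 11.5 in WT, a log2 fold change of 1.25 (adjusted p = 6.3e-07 from edgeR), so the transcript goes against the direction that the labels give. Counts over the whole gene do not separate a deleted part from the rest. Every direction below therefore rests on the labels, with HET standing for the libraries labelled HET and WT for those labelled WT. The CD4 T cell marker genes Cd3d, Cd3e, Cd3g, Cd4, Cd5 and Cd28 were detected in every library, with summed levels of 2095 to 2515 CPM in HET and 2332 to 2897 in WT. Of these 6 genes, Cd4 (log2 fold change -0.34, adjusted p = 0.045) and Cd5 (-0.34, adjusted p = 0.031, edgeR) fell in HET and the other 4 were not called, and their part in the changes of the receptor chains was not tested. Of 9 Tfh cell markers, Icos, Bcl6 and Maf rose in HET, Cxcr5 (-0.40), Pdcd1 (-0.42) and Tox2 (-0.80 on the log2 scale) fell, and 3 were not called, so 6 of 9 were called beside 18.0% of all tested genes (9.17% higher and 8.82% lower). Sh2d1a, the gene for SAP that the recipients lack, was at 363 ± 25.1 normalized CPM in HET and 374 ± 28.3 in WT (SD, n = 3 mice). B cell markers were present: Ighm had 1966 to 6645 counts in a library, the summed level of the other 10 B cell genes ran from 8.18 to 219 CPM in HET and from 10.8 to 128 in WT, and Ebf1 was at 0 to 5 counts in every library. Il4ra and Il21r are also expressed by B cells, so these values are taken up again beside them.

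Of the 10 chains, Il21r and Il6ra fell in HET, none rose, and the other 8 did not pass the test. Il21r, the specific chain of the IL-21 receptor, was at 0.596 of its WT level (95% interval 0.490 to 0.726). Il6ra, the ligand-binding chain of the IL-6 receptor, was at 0.771 of its WT level (95% interval 0.661 to 0.899). Over all tested genes, 18.0% were called in either direction, 9.17% higher and 8.82% lower in HET, against 2 of 10 chains called here, so the share of chains called was close to that of all genes. The median log2 fold change of the 10 chains was 0.13, and that of all tested genes was 0.01.

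Both promoters are shown because these are the chains whose transcripts differed. They are the RefSeq sequences on GRCm38.p6 from 250 bases before to 50 bases after the annotated start, at chr7:125603179-125603478 on the plus strand for Il21r and at chr3:89913147-89913446 on the minus strand for Il6ra. Capitals mark a match to TGTTTAC, the core of a FOXO site, in Il21r, and to CAGGTG, a form of E-box, in Il6ra. Other E-box forms, such as the CACGTG also present in the Il6ra sequence, were neither searched nor marked.
Il21r: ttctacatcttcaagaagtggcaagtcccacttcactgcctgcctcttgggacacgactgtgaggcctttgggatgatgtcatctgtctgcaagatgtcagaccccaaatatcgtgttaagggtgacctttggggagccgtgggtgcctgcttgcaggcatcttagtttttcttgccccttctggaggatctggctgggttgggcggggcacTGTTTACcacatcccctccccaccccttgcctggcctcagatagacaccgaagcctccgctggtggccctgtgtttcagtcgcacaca
Il6ra: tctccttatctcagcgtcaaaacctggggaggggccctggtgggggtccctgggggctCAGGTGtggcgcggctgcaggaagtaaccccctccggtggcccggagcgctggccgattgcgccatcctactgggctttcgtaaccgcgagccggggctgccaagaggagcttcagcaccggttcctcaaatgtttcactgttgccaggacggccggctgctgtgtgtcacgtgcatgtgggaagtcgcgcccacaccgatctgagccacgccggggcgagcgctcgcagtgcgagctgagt
A promoter was given for 9 of the 10 chains, with Il2rb as the exception. Both strands were searched for 4 motifs: TTCNNNGAA (the GAS motif of STAT factors), CAGGTG (the E-box named above), TGTTTAC (the FOXO core) and ACCGGAAG (an ETS site), none of which overlapped another in these promoters. Among the 9 promoters, TTCNNNGAA was found in that of Il7r alone, CAGGTG in that of Il6ra, TGTTTAC in that of Il21r, and ACCGGAAG in that of Il2rg. Among all 32851 promoters of this length, the shares with a match were 8.3%, 20.2%, 3.65% and 2.3%, in the same order. The TGTTTAC of Il21r lies at positions -38 to -32 relative to the start, and the CAGGTG of Il6ra at positions -192 to -187. The promoter of Il6ra has a GC content of 66.0% and that of Il21r one of 56.0%, with a median of 52.7% over all promoters.

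Il21r lies at chr7:125603429-125633570 (GRCm38, plus strand), 23955 bases from its neighbour Il4ra. Its 3 HET mice were at 53.6, 58.8 and 40.4 normalized CPM and its 3 WT mice at 96.1, 79.1 and 81.5. All 6 HET libraries (35.4 to 65.6, median 49.7) lay below all 6 WT libraries (72.6 to 98.4, median 84.3), a separation found in this direction for 4.53% of all tested genes. In bulk libraries, fewer cells with a transcript and less transcript per cell cannot be told apart. The log2 fold change was -0.75 with a standard error of 0.14 (edgeR, adjusted p = 0.00059). The exact permutation test over the 6 mice gave p = 0.1, two-sided, which is the smallest that 3 against 3 mice can give. In repeat 1 alone the log2 fold change was -0.50 (adjusted p = 0.064, edgeR), and in repeat 2 alone it was -0.98 (adjusted p = 0.000134). With the deposited TPM (a unit scaled for transcript length and library size) on the log2 scale over all genes the call was lost (-0.74, adjusted p = 0.082 from limma). The 2 libraries with the most Cd79a, a B cell gene, were repeat 2 of HET mouse 2 and repeat 2 of WT mouse 3, with 90 and 73 Cd79a counts. Il21r in these 2 libraries was at 48.0 and 88.5 normalized CPM, inside the range of its group, and without them the fold change was -0.65 (adjusted p = 0.012).

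Il6ra lies at chr3:89864059-89913196 (minus strand). The HET mice were at 101.6, 111.2 and 94.2 normalized CPM and the WT mice at 144.0, 129.6 and 124.8. The mice did not overlap, as was the case in this direction for 17.0% of all tested genes, whereas the libraries did: HET libraries reached from 85.7 to 125.5 (median 99.5) and WT libraries from 104.7 to 161.5 (median 143.3). The log2 fold change was -0.38 with a standard error of 0.11 (adjusted p = 0.017, edgeR). The call was lost without HET mouse 3 (-0.32, adjusted p = 0.060) or without WT mouse 1 (-0.32, adjusted p = 0.089), and with repeat 2 alone (-0.19, adjusted p = 0.468) and the 3 TPM fits (adjusted p = 0.081 to 0.131 from limma), which used pseudocounts of 1 and 0.1 on filtered genes and 1 over all genes. Without the 2 libraries richest in Cd79a it held (-0.50, adjusted p = 0.0090). Reads of the antisense gene Gm42809, which shares 2.8% of the exon length of Il6ra and had 0 to 75 counts in a library, cannot be told apart from it without strand. Il6ra is also expressed by myeloid cells. The summed level of the 6 myeloid markers in the table was 94.6 to 118 CPM in HET and 69.6 to 101 in WT. Most of it came from Cst3 (88.4 ± 8.16 against 76.8 ± 2.97 normalized CPM, SD, n = 3 mice), which was not called (adjusted p = 0.240, edgeR). Csf1r was not called either (log2 fold change 0.77, adjusted p = 0.068). Cd14 was at 0 in every library, and Itgam and Fcer1g did not pass the filter on low counts. Lyz2 rose in HET (log2 fold change 2.64, adjusted p = 0.0053, edgeR). Its HET mice were at 16.5, 3.67 and 3.19 normalized CPM and its WT mice at 0.092, 2.04 and 1.58. The part of these cells in Il6ra was not tested.

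**Figure D1:**
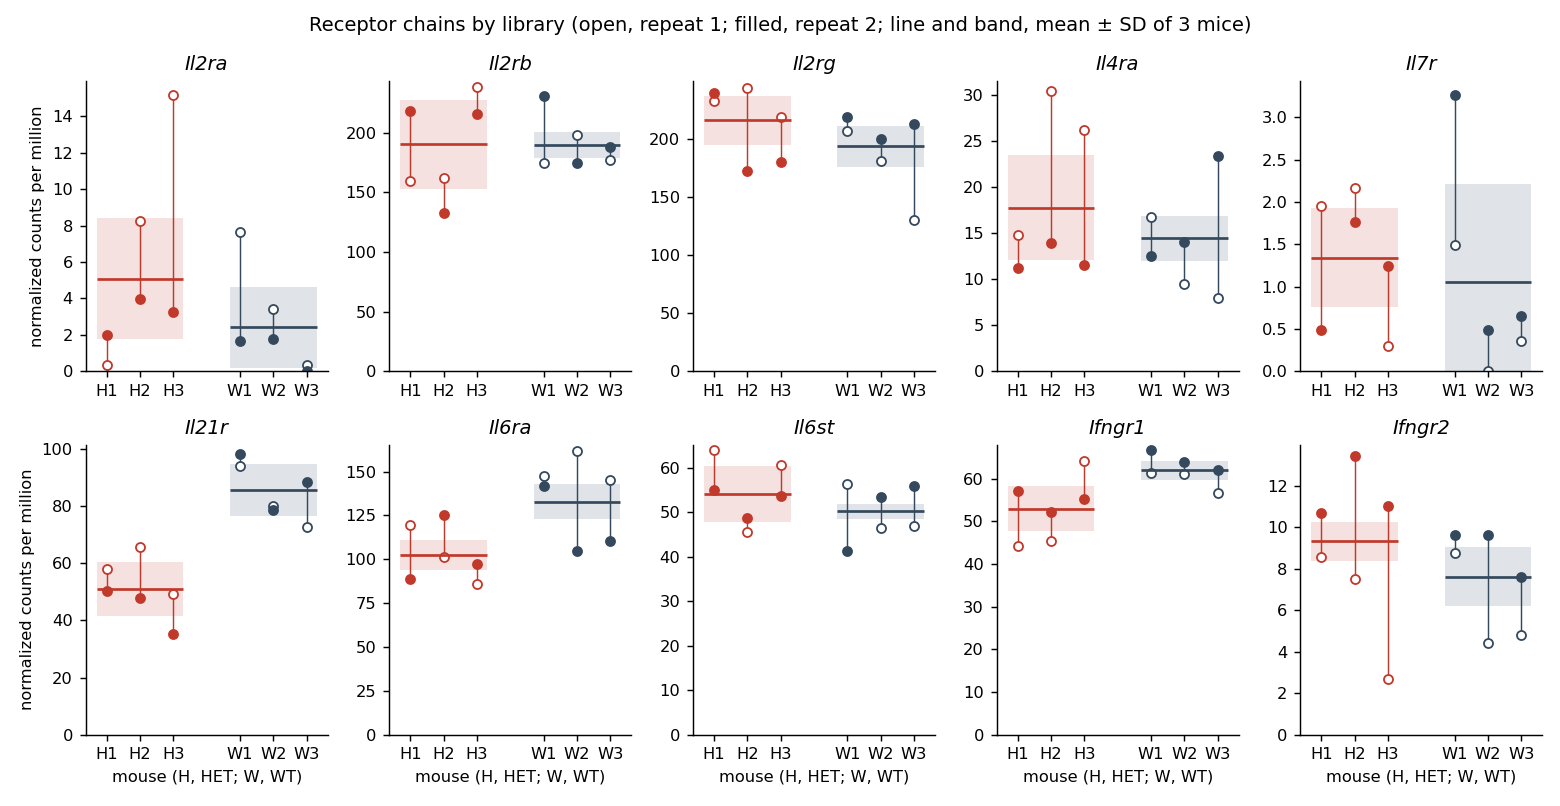
Normalized CPM (y axis, from 0) of the 10 receptor chains in each mouse (x axis, H for HET and W for WT), with open points for technical repeat 1, filled points for repeat 2, and the mean ± SD of the 3 mice as line and band. All 6 HET libraries of Il21r lie below all 6 WT libraries, and the repeats of Il4ra, Il2ra and Ifngr2 spread widely within single mice.

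The partner chains of these receptors did not pass the test. Il2rg, the common γ chain, was at 237.0, 215.9 and 194.4 normalized CPM in HET and at 212.0, 191.0 and 177.4 in WT. The groups overlapped, and the log2 fold change was 0.16 (95% interval -0.06 to 0.37, adjusted p = 0.319, edgeR). Il2rg shares 30.5% of its exon length with the read-through gene Gm20489 on the same strand, which had 0 to 6 counts in a library. Reads in shared exons may have been left uncounted, so the level of Il2rg may be a lower estimate, which was not tested. Il6st, which encodes gp130, was at 58.8, 46.9 and 56.5 in HET and at 48.5, 50.2 and 52.0 in WT, with a log2 fold change of 0.11 (95% interval -0.17 to 0.38, adjusted p = 0.635).

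The chains of the IL-2 receptor fell into an abundant and a scarce one. Il2rb, the β chain that signals for IL-2 and IL-15, was at 194.7, 150.8 and 225.2 normalized CPM in HET and at 202.6, 184.6 and 182.9 in WT. The WT mice lay within the range of the HET mice, and the log2 fold change was 0.0012 with a 95% interval of -0.24 to 0.25 (adjusted p = 0.996, edgeR). Il2ra, the α chain (CD25) that raises the affinity for IL-2, had 18, 75 and 72 counts in the 3 HET mice and 50, 28 and 2 in the 3 WT mice. The lowest mouse of the HET group lay below 2 of the 3 WT mice. The log2 fold change was 1.09, its 95% interval ran from -0.29 to 2.46 (adjusted p = 0.283), and a fold of up to 5.5 in HET or a fall to 0.82 both lay within it. Leaving out 1 mouse moved it from 0.51 (without WT mouse 3) to 1.96 (without WT mouse 1), with no call. Il2ra had 0 counts in repeat 2 of WT mouse 3, which allows up to 0.413 CPM if a count of 0 may stand for up to 3; such floors cover counting error only. Among regulatory T cell markers, which go with high Il2ra in T cells, Foxp3, the defining one, had 11 to 45 counts in every library and was at 3.59 ± 1.07 normalized CPM in HET and 5.38 ± 0.689 in WT (SD, n = 3 mice), with all HET mice below all WT mice but no call (log2 fold change -0.58, adjusted p = 0.314, edgeR). Lrrc32 and Il1rl1 had 0 to 2 counts. The summed level of that list was 149.8 to 190.0 CPM in HET and 81.7 to 163.7 in WT, most of it from Ikzf2, which rose (170.3 ± 14.4 against 111.0 ± 27.2 normalized CPM, log2 fold change 0.62, adjusted p = 0.0020). The part of such cells in the level of Il2ra was not tested.

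Il7r, the α chain of the IL-7 receptor and a gene of resting T cells, was near the detection limit. It had 15, 23 and 9 counts in the HET mice and 26, 3 and 7 in the WT mice, with 83 counts over all 12 libraries. The single library with 0 counts, repeat 1 of WT mouse 2, allows up to 0.569 CPM. The log2 fold change was 0.36 with a 95% interval of -1.20 to 1.92 (adjusted p = 0.793, edgeR), so neither direction could be told at this depth.

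Il4ra, the α chain of the IL-4 receptor at chr7:125552120-125579474, varied more between repeats than between groups. It shares 9.51% of its exon length with the antisense gene Gm44876, which had 0 to 9 counts in a library. Reads of the shared part cannot be told apart without strand. The HET mice were at 12.7, 23.9 and 16.7 normalized CPM and the WT mice at 14.6, 11.9 and 16.8, with a log2 fold change of 0.29 (95% interval -0.19 to 0.78, adjusted p = 0.430, edgeR). In repeat 1 HET was higher (log2 fold change 1.07, adjusted p = 0.031), with HET libraries at 14.8, 30.4 and 26.2 and WT libraries at 16.7, 9.42 and 7.99. In repeat 2 the sign turned (-0.46, adjusted p = 0.379), with HET libraries at 11.2, 13.9 and 11.5 and WT libraries at 12.5, 14.0 and 23.4. The summed B cell genes without Ighm were at 219 and 128 CPM in the 2 libraries richest in Cd79a, where Il4ra was at 13.9 and 23.4, and at 8.18 to 57.7 CPM in the other 10. Without these 2 libraries the log2 fold change of Il4ra was 0.75 (adjusted p = 0.107), still not called. The effect in repeat 2 minus that in repeat 1 was -1.44 on the log2 scale with a standard error of 0.46, which missed the threshold over all genes (unadjusted p = 0.0032, adjusted p = 0.320 from limma).

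The same difference of effects was taken for the other chains. It was -1.01 ± 1.09 for Il7r (SE, adjusted p = 0.872) and 0.88 ± 0.92 for Il2ra (adjusted p = 0.869), both with few counts. For Il2rg the effect in repeat 2 minus that in repeat 1 was -0.55 ± 0.18 (SE, adjusted p = 0.362), for Il21r -0.48 ± 0.23 (adjusted p = 0.595) and for Il6ra 0.38 ± 0.21 (adjusted p = 0.658), all from limma. None of the 10 chains passed this test, with 3 at an unadjusted p under 0.05, whereas 11 of 12719 genes (0.0865%) passed it and 1024 had an unadjusted p under 0.05. The median difference between the repeats of a mouse, as an absolute log2 value over 6 mice, was between 0.16 and 0.35 for Ifngr1, Il6st, Il2rg, Il2rb, Il21r and Il6ra. It was 0.74 for Ifngr2, 0.84 for Il4ra, 1.42 for Il7r and 2.17 for Il2ra. The chains with few counts therefore had the widest spread within a mouse.

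The IFN-γ receptor consists of the ligand-binding chain IFNGR1 and the chain IFNGR2, which carries JAK2. Ifngr1 was at 52.0, 48.2 and 58.7 normalized CPM in HET and at 63.9, 62.5 and 59.5 in WT. Its mice did not overlap, but the log2 fold change of -0.23 did not pass the test (95% interval -0.49 to 0.03, adjusted p = 0.228, edgeR). Ifngr2 was at 9.83, 9.88 and 8.22 in HET and at 9.16, 7.29 and 6.38 in WT, and the groups overlapped (log2 fold change 0.30, 95% interval -0.27 to 0.86, adjusted p = 0.503). In all, the mice of the groups did not overlap for 3 of the 10 chains (Il21r, Il6ra and Ifngr1, all lower in HET), against 34.4% of all tested genes in either direction.

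**Figure D2:**
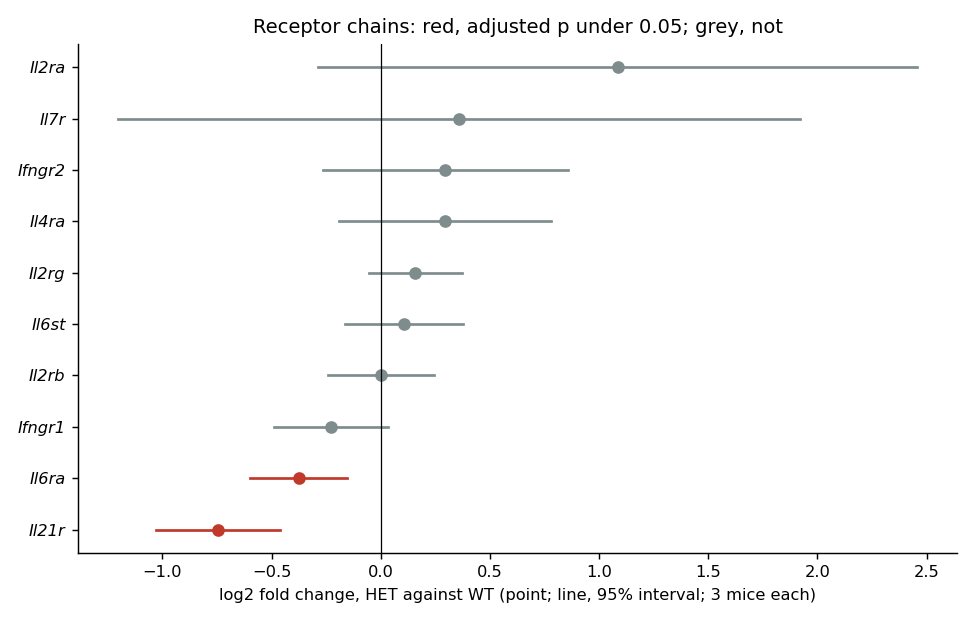
Log2 fold change of HET against WT (x axis) for each receptor chain, with points for the edgeR estimate and lines for its 95% interval over 3 mice per group. Red marks Il21r (-0.75) and Il6ra (-0.38), the chains with an adjusted p under 0.05, and the intervals of the other 8 chains include 0.

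Levels of different genes were compared as normalized CPM per kilobase of exon, so that long transcripts do not count for more. Il2rg was highest at 85.7 ± 8.91 (SD, n = 6 mice), followed by Il2rb at 44.4 ± 5.75. Il21r at 20.5 ± 6.24 and Ifngr1 at 20.2 ± 2.16 came next, and their ranges over the 6 mice overlapped. Within HET, Il21r (15.3 ± 2.85) had a lower mean than Ifngr1 (18.6 ± 1.87), and within WT it had a higher one (25.7 ± 2.76 against 21.8 ± 0.784; SD, n = 3 mice). Il6ra followed at 13.6 ± 2.16, with Il6st at 4.70 ± 0.420, Il4ra at 2.68 ± 0.718, Ifngr2 at 2.25 ± 0.378, Il2ra at 0.656 ± 0.510 and Il7r at 0.257 ± 0.179. Of the 9 pairs of neighbours in this order, the ranges over 6 mice overlapped for Il21r with Ifngr1, Il4ra with Ifngr2, and Il2ra with Il7r, and were separate for the other 6. On this scale 94.8% of the tested genes with a length lay below Il2rg, 50.7% below Il6st and 2.78% below Il7r. The order was the same with the length of the longest transcript.

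**Figure D3:**
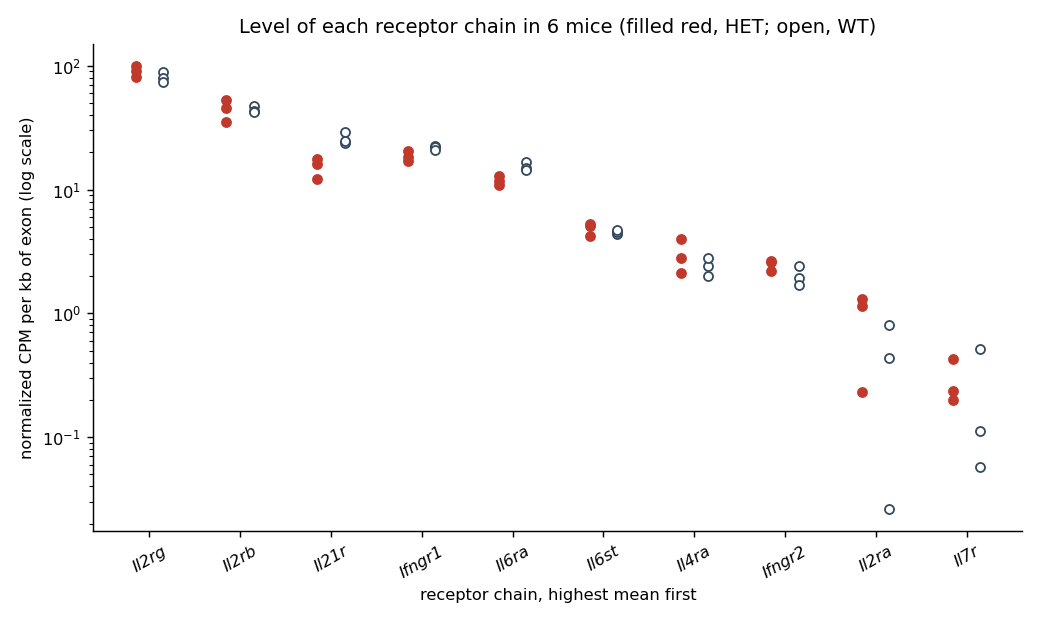
Normalized CPM per kilobase of exon (y axis, log scale) for each receptor chain (x axis, highest mean first), with 1 point per mouse, filled red for HET and open for WT. The means run from 85.7 for Il2rg to 0.257 for Il7r, and the WT points of Il21r lie above its HET points.

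Ratios of chains that belong to 1 receptor were taken within each mouse, as counts per kilobase with 0.5 added to each count, and 7 were tested. For each Il2rg, there was 0.169 ± 0.0238 of Il21r in HET and 0.318 ± 0.0177 in WT (SD, n = 3 mice), a difference of -0.92 on the log2 scale, and the groups did not overlap. The ratio of Il6ra to Il6st was 2.47 ± 0.503 in HET and 3.40 ± 0.371 in WT (difference -0.48), again without overlap. Both had the smallest p that the exact two-sided permutation test of 3 against 3 mice allows (p = 0.1, adjusted p = 0.35 over the 7 ratios). The ratio of Ifngr1 to Ifngr2 was 7.60 ± 1.58 in HET and 10.9 ± 1.57 in WT, and the groups overlapped (exact permutation p = 0.2, adjusted p = 0.467). Il2rb to Il2rg was 0.497 ± 0.133 in HET and 0.548 ± 0.0228 in WT (exact permutation p = 0.5, adjusted p = 0.583). Il4ra to Il2rg was 0.0332 ± 0.0114 and 0.0300 ± 0.00684 (exact permutation p = 0.9, adjusted p = 0.9). The ratios of Il2ra and Il7r to Il2rg were at most 0.016 and 0.00586 in any mouse, with overlap of the groups (exact permutation p = 0.5 and adjusted p = 0.583 for each). Since the same Il2rg enters 5 of the ratios and its counts may miss shared exons, these are ratios of counted reads, not of receptor chains on the cell.

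**Figure D4:**
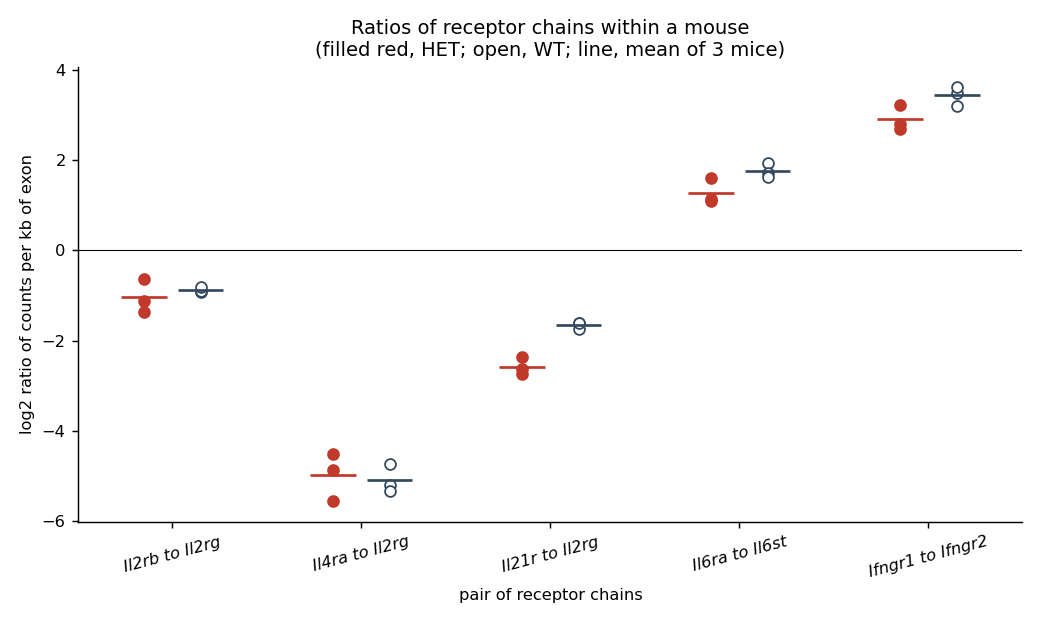
Log2 ratio of counts per kilobase of exon (y axis) for 5 pairs of receptor chains within each mouse (x axis, the pair), filled red for HET, open for WT, with lines at the mean of 3 mice. The HET points lie below the WT points for Il21r to Il2rg and for Il6ra to Il6st and overlap them for the other 3 pairs.

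Of the ligands, 3 of 11 listed genes passed the filter on low counts, and Il4 alone of these was called, beside 18.0% of all tested genes. Il4, made by Tfh cells, was at 77.6, 59.5 and 59.8 normalized CPM in HET and at 42.5, 60.4 and 38.2 in WT, so 1 WT mouse lay within the range of HET. Its log2 fold change was 0.48 with a standard error of 0.16 (adjusted p = 0.035, edgeR), and it was lost without HET mouse 1 (0.34, adjusted p = 0.203), WT mouse 1 (0.41, adjusted p = 0.140) or WT mouse 3 (0.35, adjusted p = 0.197), without the 2 libraries richest in Cd79a (0.38, adjusted p = 0.211), with GC and length trends removed (0.34, adjusted p = 0.166; with the replicate block as well, adjusted p = 0.098), in repeat 1 alone (0.40, adjusted p = 0.259) and with the 3 TPM fits (adjusted p = 0.152 to 0.290). Il21, the ligand of the receptor whose chain fell, was at 28.4, 23.5 and 42.1 in HET and at 47.7, 29.9 and 27.9 in WT (log2 fold change -0.17, adjusted p = 0.637). Lif, which signals through gp130, had a log2 fold change of 0.05 (adjusted p = 0.953). Il2 did not pass the filter: it had 0 to 34 counts per HET library and 0 to 5 per WT library. In a fit of every gene with at least 1 count in a mouse, Il2 was higher in HET (log2 fold change 3.04, adjusted p = 0.0061), a value that rests on few counts: HET mouse 3 at 0.617 normalized CPM lay below WT mouse 2 at 0.711, so the groups overlapped. Il6 had 0 to 8 counts in a library, and Ifng had 0 to 6 in HET and 0 in all 6 WT libraries. Il7 and Il9 were not analysed here.

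Of the 11 JAK and STAT genes, all tested, Jak2 rose and Jak3 fell, and 9 did not pass, so 18.2% were called beside 18.0% of all tested genes. Jak3, the kinase that binds the common γ chain, was at 38.7, 37.1 and 41.1 normalized CPM in HET and at 60.4, 63.5 and 69.6 in WT. The groups did not overlap, with a log2 fold change of -0.73 and a standard error of 0.13 (adjusted p = 0.00041, edgeR), which remained past the threshold in all 21 alternatives (-0.90 to -0.50). Jak2, which binds IFNGR2 and can bind gp130, was at 56.2, 69.5 and 51.1 in HET and at 39.3, 41.8 and 34.4 in WT (log2 fold change 0.62, standard error 0.14, adjusted p = 0.0041), without overlap, and lost its call in repeat 1 alone (0.56, adjusted p = 0.059) and with the 3 TPM fits (adjusted p = 0.139 to 0.294). Jak1, which binds the ligand-specific signalling chains as well as gp130 and IFNGR1, differed by -0.07 (adjusted p = 0.634). Stat3 (-0.19, adjusted p = 0.208), Stat5a (-0.12, adjusted p = 0.610), Stat5b (-0.34, adjusted p = 0.057) and Stat6 (-0.03, adjusted p = 0.912) were not called. The median log2 fold change of the 11 genes was -0.07, beside 0.01 for all genes.

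**Figure D5:**
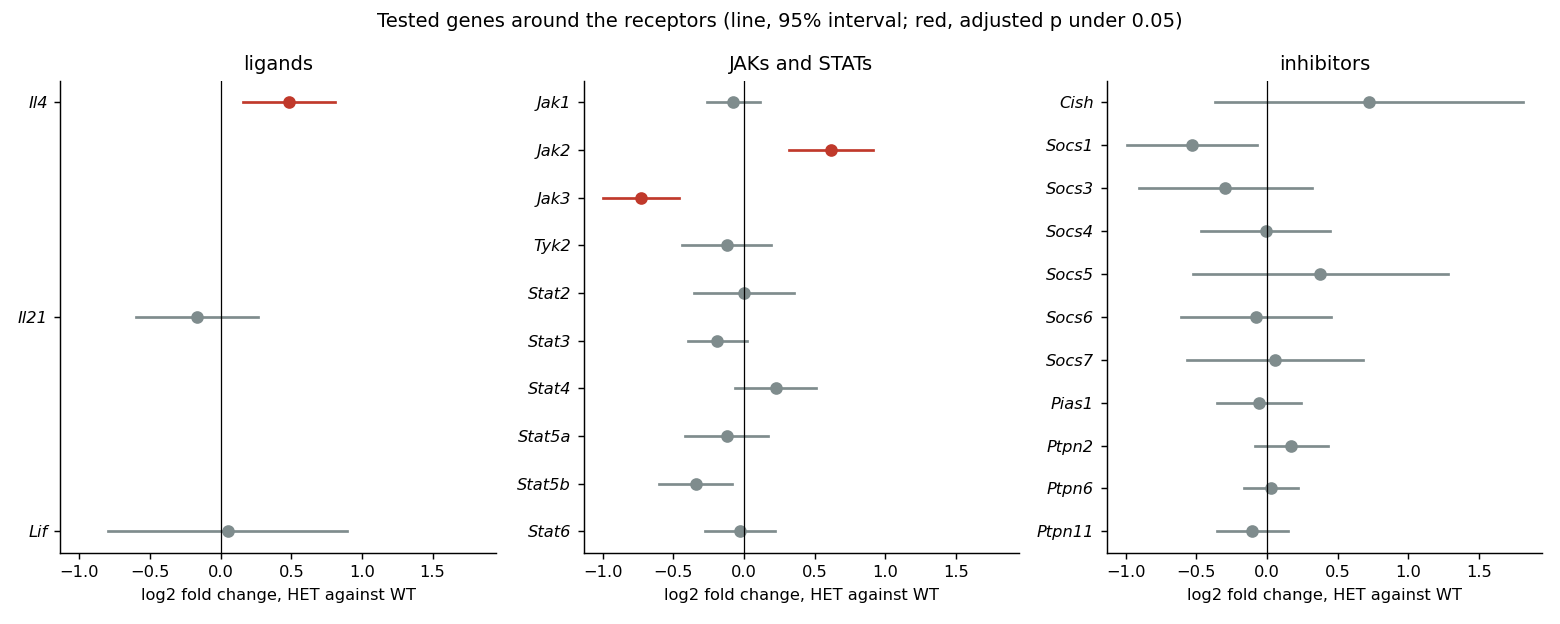
Log2 fold change of HET against WT (x axis) for tested ligands, 10 of the 11 Janus kinases and STAT factors, and feedback inhibitors (y axis), with points for the edgeR estimate, lines for its 95% interval, and red for an adjusted p under 0.05. Il4 (0.48) and Jak2 (0.62) lie to the right of 0, Jak3 (-0.73) to its left, and no inhibitor was called.

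The feedback inhibitors, among them the SOCS genes that STATs induce, had 0 of 11 tested genes called, by edgeR, beside 18.0% of all tested genes, with a median log2 fold change of -0.01. The nearest were Socs1 (-0.53, adjusted p = 0.103) and Cish (0.72, adjusted p = 0.381). Of 25 other cytokine receptor chains in the count table, 19 were tested and 1 was called (5.26%, beside 18.0% of all tested genes): Crlf2, the chain that pairs with Il7r for TSLP, which fell (log2 fold change -0.76, standard error 0.26, adjusted p = 0.048). Its call was lost in 15 of 21 alternatives, among them leaving out any mouse but HET mouse 1, without which the log2 fold change was -1.23. Il15ra, next to Il2ra on chromosome 2, had a log2 fold change of -0.70 (adjusted p = 0.233), and Tgfbr2 one of -0.40 (adjusted p = 0.052). The median over these 19 chains was -0.19.

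Among known targets of these receptors, the shares called were 12.5%, 11.8% and 14.3% in the 3 lists below, near the 18.0% of all tested genes, and nothing is read from them about the targets. Of 8 tested IL-2 and STAT5 targets, Tnfrsf4, which encodes the co-stimulatory receptor OX40, rose (log2 fold change 0.81, adjusted p = 0.017, edgeR) and 7 were not called. The call for Tnfrsf4 was lost without HET mouse 1 (0.75, adjusted p = 0.064), HET mouse 3 (0.54, adjusted p = 0.156), WT mouse 2 (0.62, adjusted p = 0.105) or WT mouse 3 (0.80, adjusted p = 0.061). It was also lost with DESeq2 (0.81, adjusted p = 0.177), in repeat 2 alone (0.68, adjusted p = 0.119) and with the 3 TPM fits (0.63 to 0.64, adjusted p = 0.283 to 0.509). Prdm1, the gene for the Bcl6 antagonist Blimp-1, had 0 to 23 counts in HET libraries and 0 to 5 in WT libraries and was not tested. Of 17 tested IFN-γ targets, the guanylate-binding protein genes Gbp2 (-0.95, adjusted p = 0.011) and Gbp3 (-1.17, adjusted p = 0.028) fell and 15 were not called, among them Irf1 (-0.20, adjusted p = 0.245). Gbp2 was not called without HET mouse 2 (-0.76, adjusted p = 0.060) or WT mouse 1 (-0.86, adjusted p = 0.053). Gbp3 was not called without HET mouse 1 (-1.22, adjusted p = 0.052), HET mouse 3 (-1.05, adjusted p = 0.077), WT mouse 1 (-0.95, adjusted p = 0.151), WT mouse 3 (-1.18, adjusted p = 0.077) or the libraries richest in Cd79a (-1.02, adjusted p = 0.144). Gbp2 was also lost in repeat 1 alone (-0.65, adjusted p = 0.320) and with the 3 TPM fits (-1.01 to -0.75, adjusted p = 0.071 to 0.187). Gbp3 was also lost in repeat 1 alone (-1.30, adjusted p = 0.203), in repeat 2 alone (-1.13, adjusted p = 0.166), with the mouse as a random effect (-1.03, adjusted p = 0.078) and with TPM over all genes (-0.83, adjusted p = 0.139). Of 7 IL-6 and STAT3 targets, Maf, a transcription factor of Tfh cells, rose (0.74, standard error 0.15, adjusted p = 0.0012; in repeat 1 alone 0.60, adjusted p = 0.080, and not called with the 3 TPM fits, adjusted p = 0.076 to 0.157) and 6 were not called, among them Socs3 (-0.30, adjusted p = 0.545) and Batf (0.08, adjusted p = 0.647).

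Of 10 genes that drive Il7r or are expressed with it in resting T cells, 4 fell and 1 rose, so 5 of 10 were called beside 18.0% of all tested genes (8.82% lower and 9.17% higher), and the difference in shares was not tested. Ets1 (-0.65, adjusted p = 8.2e-05), Lef1 (-0.60, adjusted p = 0.00061) and Tcf7 (-0.27, adjusted p = 0.022, edgeR), which encode transcription factors of naive and memory T cells, were the 3 with the smallest p among those that fell, and Gabpa (-0.42, adjusted p = 0.031) was the other. Lef1 was at 159 ± 17.5 normalized CPM in HET and 241 ± 32.2 in WT (SD, n = 3 mice). Tcf7 was at 1009 ± 39.8 and 1219 ± 32.1, whereas Il7r itself was near the detection limit in these libraries. S1pr1, the receptor for lymph node exit, rose (0.62, adjusted p = 0.00018), with 0.24 in repeat 1 alone (adjusted p = 0.336). Foxo1, which drives Il7r, was not called (0.29, adjusted p = 0.109), nor was Ccr7 (-0.14, adjusted p = 0.395). The call for Tcf7 was lost with GC and length trends removed (-0.17, adjusted p = 0.139, or 0.075 with the replicate block as well), in repeat 1 alone (adjusted p = 0.130), in repeat 2 alone (adjusted p = 0.149), and without WT mouse 1 (adjusted p = 0.072), WT mouse 3 (adjusted p = 0.0504) or the libraries richest in Cd79a (adjusted p = 0.054), and that for Gabpa without any mouse but WT mouse 1 (adjusted p = 0.056 to 0.163) or without those libraries (adjusted p = 0.143), in repeat 1 alone (adjusted p = 0.156) and in repeat 2 alone (adjusted p = 0.092). With TPM over all genes, the calls of Ets1, Lef1, Tcf7, Gabpa and S1pr1 were all lost (adjusted p = 0.062 to 0.0996 from limma). The log2 fold changes there were -0.72, -0.62, -0.38, -0.52 and 0.46, in the same order, so only that of S1pr1 was smaller in size than in the edgeR fit.

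The genes whose log2 CPM over the 12 libraries was most like that of Il21r, among 7830 others with a mean of at least 10 CPM, were Nfkbil1 (Pearson r = 0.958), Hnrnpa3 (0.955) and Gm2a (0.955). For Il6ra they were Mindy1 (0.919), Heg1 (0.914) and Fbxo42 (0.897). These values describe 12 libraries that come in pairs from 6 mice in 2 groups, so genes that differ between the groups reach a high r. Nfkbil1 was at 5.56 ± 1.97 normalized CPM in HET and 15.9 ± 4.27 in WT (SD, n = 3 mice). Heg1 was at 187 ± 7.19 in HET and 244 ± 12.5 in WT.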

How the data were processed

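SMART-Seq2 libraries of sorted Tfh cells were used. Per the paper's methods and the submitters' processing notes, the authors checked reads with FastQC, aligned them to GRCm38 (mm10) with Hisat2 2.2.1 and counted them per gene with HTSeq-count; strandedness and annotation release are not given in the sources used here. The deposited counts are raw; the deposited TPM values were scaled by the authors. The receptor chains, gene lists and motifs were chosen with earlier results of these data known.

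Counts of the 2 technical repeats were summed per mouse. edgeR 4.0.16 in R 4.3.3 (TMM, filterByExpr with a minimum count of 10, quasi-likelihood test) compared 3 HET with 3 WT mice, with Benjamini-Hochberg adjustment over 12719 genes and a threshold of 0.05. Standard errors are the log2 fold change over the root of its F statistic. Normalized CPM use TMM library sizes; marker sums use plain CPM. Differences between repeats were tested with limma 3.58.1 on log2 CPM. Ratios were tested with exact permutation. The scripts were tested on simulated data. GENCODE M21 gave coordinates and exon lengths, with 23822 of 24561 symbols matched; RefSeq gave promoters. Genes were named by rule: all chains, Il2, Il4, Il6, Il7, Il21, Ifng, Bcl6, up to 3 called genes per direction from each list with the smallest p, and the 3 genes most like each called chain. Other genes, such as uncalled pathway members, were chosen after their values were seen; some members of the gene lists are counted but not reported by name here. Alternatives were DESeq2 1.42.0, other scalings and filters, GC and length trends, TPM on log2 with pseudocounts of 1 and 0.1, each repeat alone, and leaving out mice. Leaving out the 2 libraries with at least 10 CPM of Cd79a was chosen after seeing the data.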

Additional observations from a re-analysis of the deposited data

How the results depend on the processing

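Against 2 called chains and 2288 called genes, repeat 1 alone gave 1059 called genes and repeat 2 alone 1446 genes with 1 chain, Il21r. The deposited TPM gave 1305 genes with log2(TPM + 1) and 1260 with log2(TPM + 0.1), with 1 chain each, and 221 genes with 0 chains over all genes, where Il21r had an adjusted p of 0.082 in limma. Of the called genes 51.0% were higher in HET, against 29.9% and 29.7% with the filtered TPM, where the median of all genes moved from 0.01 to -0.07 and -0.11. Without the 2 libraries richest in Cd79a, 1342 genes were called. Leaving out 1 mouse gave 1424 (without WT mouse 3) to 1972 genes and 1 to 2 chains.

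The call for Il6ra was also lost with the TPM fits (-0.49 to -0.44). Signs turned only in differences that were not called. For Il2rb these were -0.0074 with DESeq2, -0.0022 with relative log expression scaling, -0.015 without a filter, -0.055 in repeat 2, -0.036 with the mouse as a random effect, -0.15 with each of the TPM fits, and -0.14 to 0.14 over left-out mice. They were -0.087 for Il2rg and -0.46 for Il4ra in repeat 2. Over left-out mice Il7r ran from -0.10 to 1.71, Il21 from -0.44 to 0.10, and the Il4ra to Il2rg ratio from -0.13 to 0.39. In repeat 2 that ratio differed by -0.29 and the Il2rb to Il2rg ratio by 0.019. Il2ra, Ifngr2 and Il7r could not be fitted where every library needed 10 counts, nor Il7r with 1 repeat or with the mouse as a random effect. Il4ra was called in repeat 1 alone.

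Replicate numbers gave no sign of pairing the mice. The deviations of same-numbered mice correlated at 0.085, -0.028 and 0.025, and those of other pairs at -0.083 to 0.060. With so few mice, these values cannot show whether mice were handled in pairs. A replicate block called 2579 genes and the same 2 chains, Il21r and Il6ra, and turned Il2rb to -0.015.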
